A study of Mus musculus with 6 samples.

Results

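The comparison set mouse embryonic intestine that expressed BARX1 from a transgene against control intestine, on 2 arrays each. These 4 arrays were taken by their labels from a series of 6, of which the other two measured wild-type stomach. Both intestine groups came from C57BL/6 embryos at embryonic day 13.5. The BARX1-expressing intestine carried the genotype Rosa26+/Barx1;Bapx1+/Cre, so that Cre made from the Bapx1 locus (the gene now named Nkx3-2) switched on a Barx1 allele placed at Rosa26. Control intestine carried Rosa26+/Barx1 or Bapx1+/Cre, without the labels saying which embryo had which allele, so controls lacked the combination and not each allele. Tissues were digested with collagenase-dispase and then trypsin to deplete endoderm, and the cells were cultured for 3 days in DMEM with 20% fetal bovine serum, so each value describes cultured cells and not fresh gut. Replicates were labelled biological, but nothing stated whether they came from separate embryos or pools, so p-values measure the spread between these arrays.

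BARX1, a homeodomain protein that binds DNA, is made in stomach mesenchyme and is normally low in the intestine. In the embryo it supports stomach identity in the overlying epithelium, in part through secreted antagonists of Wnt signalling, and it acts in stomach smooth muscle and spleen development. Bapx1-Cre is active in gut mesenchyme, so the question of the comparison was which genes intestinal mesenchyme raised or lowered when it made BARX1. In bulk RNA of this kind, fewer cells of a type and less RNA per cell cannot be told apart.

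Each of 12393 genes was read from 1 probe set, the one with the highest mean over the 6 arrays, on the log2 scale of the deposited values, on which a difference of 1 is a doubling. A gene was called when its adjusted p (limma on all 6 arrays, Benjamini-Hochberg) was under 0.05. By that rule 493 genes (3.98%) differed, 230 of them higher with BARX1 (1.86%) and 263 lower (2.12%). Falls were larger than rises: the median difference was 0.51 among genes called higher and -0.83 among genes called lower, and 91 genes fell by 1 or more (0.734% of all) against 38 that rose by 1 or more (0.307%). The stomach arrays gave the fit much of its estimate of spread. When either stomach array was left out, which leaves no spread to estimate from stomach, 19 genes were called higher and 31 lower. Without Barx1 intestine replicate 1 the counts were 24 and 29, without its replicate 2 they were 27 and 58, without intestine replicate 1 they were 137 and 329, and without intestine replicate 2 they were 50 and 105. For this comparison the fits without either stomach array are the same fit, so only 5 of these 6 fits are distinct. Over all genes, 52.4% had no overlap between the arrays of the groups, 30.1% higher and 22.4% lower with BARX1. In every one of these 6 fits, 13 genes stayed called higher (0.105% of all) and 20 stayed called lower (0.161%).

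The 13 that stayed higher were Isl1, Barx1, Fap, Avpr1a, Six2, Ccn3, Esm1, Nrk, Dlk1, Mgll, Kcnn4, Plagl1 and Sema3a. The 20 that stayed lower were Itih5, P2ry14, Sptssb, Mmp10, Erbb3, Postn, Ifitm1, Aldh1a3, Pla1a, Plekhb1, L1cam, Hs3st1, Ifitm6, Hhex, Abhd15, Clca3a2, Cd200, Stom, Ndp and Timp3. Of these, Ndp and Clca3a2 lay below the arrays' lower quartile (4.72 to 4.76) in both groups, where signal is not shown to be above background. P2ry14, Itih5, Ifitm6, Cd200 and Abhd15 lay below it in Barx1 intestine only, so the size of their differences is uncertain and may be understated.

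**Figure D1:**
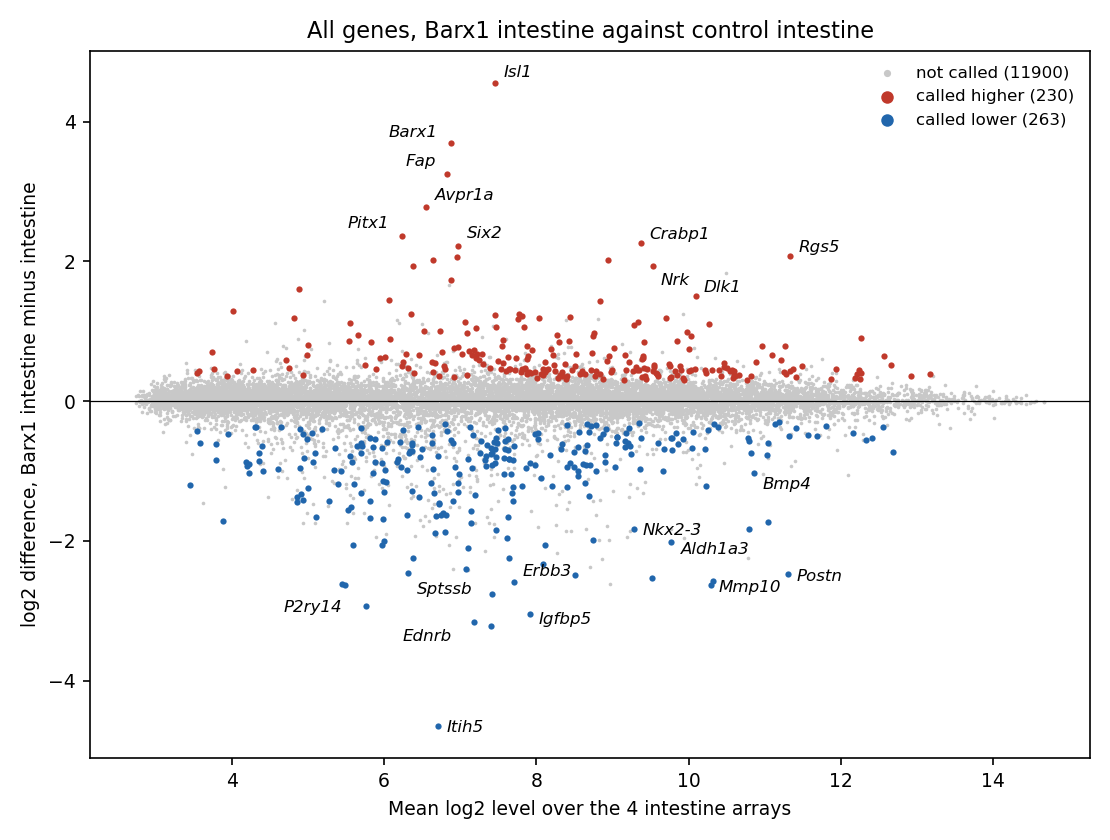
Each of the 12393 genes as a point, with its mean log2 level over the 4 intestine arrays (x axis) and its log2 difference, Barx1 intestine minus intestine (y axis). The 230 genes called higher are red and the 263 called lower are blue, with Isl1 at 4.56 and Itih5 at -4.65 as the extremes.

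The transgene's own product was measured first. Barx1 read 8.66 and 8.79 in Barx1 intestine, 5.13 and 4.93 in intestine and 9.82 and 9.79 in stomach. The groups were far apart, by 3.69 (SE 0.09, adjusted p = 0.000207) over intestine, and transgenic intestine differed from stomach by -1.08 (adjusted p = 0.012). Gt(ROSA)26Sor, the transcript of the locus that carries the Barx1 allele, was looked at after its values were seen. It read 8.10 and 7.88 with BARX1 and 8.54 and 8.80 without, a difference of -0.68 (adjusted p = 0.0431) that kept its call in 1 of the 6 fits without an array. Nkx3-2, the locus that drives Cre, differed by 0.22 (adjusted p = 0.343) and was near background in intestine.

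Defining mesenchymal and smooth muscle markers all lay above the arrays' lower quartile in both intestine groups. The intermediate filament gene Vim read 14.02 and 14.04 with BARX1 against 14.04 and 14.03, and the smooth muscle actin gene Acta2 read 14.57 and 14.55 against 14.55 and 14.57. Epithelial markers also remained in both groups despite the digestion. Epcam read 7.86 and 7.11 with BARX1 and 9.22 and 7.95 without. Of 14 genes on a list of mesenchyme markers, 3 rose and none fell, beside 1.86% and 2.12% of all genes. Their median difference was -0.14 against 0.021 over all genes.

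Transcription factors of the mesenchyme gave some of the largest rises. Of 63 measured factors on the list, 11 were called higher, Barx1 included, and 8 lower, beside 1.86% and 2.12% of all genes. Their median difference was 0.10 against 0.021 over all genes. This list and the others were chosen with earlier results of these data known, so such counts are descriptions and not tests. Isl1, a LIM-homeodomain factor of stomach and pyloric mesenchyme, read 9.72 and 9.75 in Barx1 intestine, 5.31 and 5.06 in intestine and 9.56 and 9.43 in stomach. Intestine was low and both other groups were high, and the difference of 4.56 (SE 0.10, adjusted p = 0.000207) exceeded that of Barx1 itself. Six2, a homeodomain factor that marks the posterior stomach, read 8.04 and 8.13 against 5.79 and 5.94, a difference of 2.22 (SE 0.09, adjusted p = 0.00164). Its 2 stomach arrays read 8.04 and 7.86, so its level in Barx1 intestine was not called different from stomach (adjusted p = 0.42).

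Other factors rose less evenly. Pitx1, a bicoid-type homeodomain factor of the hindlimb, read 7.43 and 7.39 against 5.34 and 4.76 and rose by 2.36 (SE 0.19). Gata3, a zinc-finger factor, rose by 1.74 from 6.19 and 5.84 to 7.50 and 8.01, while its stomach arrays stood at 5.88 and 5.75. Dlx2 rose by 1.20, and it too was below Barx1 intestine in stomach, by 1.68 (adjusted p = 0.012). For Gata3 and Dlx2 the BARX1-expressing cells therefore read above both tissues. The orphan nuclear receptor gene Nr2f1 rose by 1.25 but differed from stomach by -1.97 (adjusted p = 0.011), and Prrx1, a homeodomain factor of limb and craniofacial mesenchyme, rose by 1.12 and differed from stomach by -2.64. The bHLH factors Twist1 and Twist2 rose by 1.06 and 0.71, and the HOX cofactor gene Meis1 by 0.76 (SE 0.06). Isl1 and Six2 kept their call in every fit without an array. Of these 10 genes 8 lost it in at least 1, with adjusted p up to 0.181 without Barx1 intestine replicate 1, 0.1 without its replicate 2, 0.108 without either stomach array and 0.0678 without intestine replicate 2.

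To show the DNA next to the transcription start of genes at each end of the comparison, the promoter windows of Isl1 and Six2 (higher) and Mmp10 and Sptssb (lower) follow, each running from 250 bases before the start to 50 after it in RefSeq on GRCm38.p6. They were chosen after the values were seen, among genes called in every fit. Capitals mark each match to the homeodomain core TAATTA or TAATTG, searched on both strands, so that CAATTA also counts. Isl1 is at chr13:116309639-116309938 on the minus strand, Six2 at chr17:85688205-85688504 on the minus strand, Mmp10 at chr9:7502092-7502391 on the plus strand and Sptssb at chr3:69859845-69860144 on the minus strand.
Isl1: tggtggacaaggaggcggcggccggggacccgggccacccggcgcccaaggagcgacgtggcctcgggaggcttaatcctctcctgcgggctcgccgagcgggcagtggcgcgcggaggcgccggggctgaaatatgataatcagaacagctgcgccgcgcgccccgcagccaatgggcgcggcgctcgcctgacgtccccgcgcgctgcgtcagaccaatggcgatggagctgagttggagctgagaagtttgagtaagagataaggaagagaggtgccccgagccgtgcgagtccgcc
Six2: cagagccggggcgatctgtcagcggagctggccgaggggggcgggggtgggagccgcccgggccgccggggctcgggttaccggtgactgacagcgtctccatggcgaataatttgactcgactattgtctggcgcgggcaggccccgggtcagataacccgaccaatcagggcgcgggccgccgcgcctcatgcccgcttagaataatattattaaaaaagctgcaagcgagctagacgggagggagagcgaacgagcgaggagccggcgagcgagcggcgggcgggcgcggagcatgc
Mmp10: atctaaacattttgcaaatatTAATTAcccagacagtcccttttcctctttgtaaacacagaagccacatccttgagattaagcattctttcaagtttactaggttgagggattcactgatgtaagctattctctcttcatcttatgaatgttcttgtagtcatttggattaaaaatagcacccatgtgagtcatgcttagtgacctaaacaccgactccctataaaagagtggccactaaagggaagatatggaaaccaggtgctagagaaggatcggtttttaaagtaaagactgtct
Sptssb: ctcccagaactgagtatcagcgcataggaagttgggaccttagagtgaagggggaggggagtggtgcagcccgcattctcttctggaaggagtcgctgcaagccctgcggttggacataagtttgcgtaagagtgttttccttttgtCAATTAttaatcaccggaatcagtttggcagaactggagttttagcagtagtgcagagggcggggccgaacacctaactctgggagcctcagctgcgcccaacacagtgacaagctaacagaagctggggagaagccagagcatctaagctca
These windows held 0 matches for Isl1 and Six2 and 1 each for Mmp10 and Sptssb. Among genes called higher, 13 of 238 promoters held a match (5.46%), and among genes called lower 26 of 281 did (9.25%). Over all tested genes it was 1021 of 12559 promoters (8.13%). Promoters were found for 185 of the 230 genes called higher and 207 of the 263 called lower.

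Another set of mesenchymal factors fell. Nkx2-3, a homeodomain factor of intestinal and splenic mesenchyme, read 8.61 and 8.14 with BARX1, 10.30 and 10.09 in intestine and 7.97 and 7.79 in stomach. It fell by 1.83 (SE 0.17, adjusted p = 0.0132), to a level not called different from stomach (adjusted p = 0.16). Hlx, a homeobox gene needed for gut growth, fell by 1.18 from 7.71 and 7.41 to 6.23 and 6.54. Hhex, a homeobox gene counted outside the list, fell by 1.30 (SE 0.10) and kept its call in every fit. The T-box genes Tbx3 and Tbx2 fell, with differences of -1.18 and -0.95, although a second probe set for Tbx3 differed by 0.19 in the other direction.

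Dlx1 fell by 1.19, the opposite direction to its neighbour Dlx2. Foxf2, a forkhead factor downstream of Hedgehog in gut mesenchyme, fell by 0.69, and Runx1 fell by 0.68. Mab21l2 fell by 0.88 and still lay 1.02 above stomach (adjusted p = 0.012). Apart from Hhex, these 9 genes each lost their call in at least 1 fit, with adjusted p up to 0.149 without Barx1 intestine replicate 1, 0.0989 without its replicate 2 and 0.0734 without either stomach array.

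Of 31 measured Hox genes, which mark position along the body axis, 4 rose and 1 fell, beside 1.86% and 2.12% of all genes. Their median difference was 0.16. Hoxa9 read 7.46 and 7.24 against 5.73 and 5.10, a rise of 1.93 (SE 0.21, adjusted p = 0.0179). Hoxb9 rose by 1.14, Hoxd8 by 0.88 and Hoxa7 by 0.48, and Hoxb5 fell by 0.39. Intestine arrays of Hoxa9 and Hoxb9 differed among themselves by more than the Barx1 intestine arrays did. None of the 5 kept its call in every fit without an array, and adjusted p reached 0.17 without Barx1 intestine replicate 1 and 0.119 without either stomach array.

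Receptors that act on contraction moved both ways. Among 37 measured receptor genes 3 were higher and 3 lower, beside 1.86% and 2.12% of all genes. The vasopressin receptor gene Avpr1a read 7.97 and 7.92 with BARX1, 5.16 and 5.17 in intestine and 6.95 and 7.21 in stomach. Its rise of 2.78 (SE 0.09, adjusted p = 0.000719) placed Barx1 intestine 0.87 above stomach (adjusted p = 0.015), and its other probe set differed by 3.16. Rgs5, a regulator of G protein signalling known from pericytes, rose by 2.07 on 4 concordant probe sets, from 10.79 and 9.80 to 12.42 and 12.32. The lysophosphatidic acid receptor gene Lpar4 rose by 0.61.

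The endothelin receptor gene Ednrb fell as well and, since it also marks neural crest, is described with it further on. P2ry14, a receptor for UDP-sugars, read 4.24 and 4.36 with BARX1 against 7.19 and 7.28, and fell by 2.93 (SE 0.07, adjusted p = 0.000207). Stomach was also low, at 3.82 and 3.92. S1pr3 was called lower, at -0.37, but both groups were below the lower quartile. Avpr1a and P2ry14 stayed called in every fit, and the other four genes of this set lost the call in at least 1, with adjusted p up to 0.162 without Barx1 intestine replicate 1.

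Of 27 measured contractile smooth muscle genes, 3 were called lower and 0 higher, beside 2.12% and 1.86% of all genes. The median difference of the list was -0.021, against 0.021 over all genes. Kcnmb1, the beta subunit of the BK potassium channel, fell by 0.78. The myosin phosphatase inhibitor gene Ppp1r14a fell by 0.76 and Csrp1 fell by 0.46. Acta2 differed by -0.00 and the smooth muscle myosin gene Myh11 by -0.45 (adjusted p = 0.145). All 3 calls were lost in some fits, with adjusted p up to 0.185 without Barx1 intestine replicate 1 and 0.109 without either stomach array.

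Among secreted signals, BMP and TGF-beta genes showed 1 rise and 3 falls in 40, beside 1.86% and 2.12% of all genes. Fst, which encodes the activin antagonist follistatin, read 10.85 and 10.80 against 9.69 and 9.75, a rise of 1.10 (SE 0.08, adjusted p = 0.00768). Bmp4, a mesenchymal BMP ligand, fell by 1.03 from 11.29 and 11.46 to 10.28 and 10.43, below stomach as well, where it read 11.12 and 11.15. The BMP antagonist gene Grem1 fell by 1.36 and Tgfb2 fell by 0.67. Ligand and antagonist thus fell together, and the median of the list was 0.097.

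Wnt genes were examined because BARX1 is known for its effect on that pathway in the stomach. Of 38 measured, only Rspo2, which encodes an enhancer of Wnt signalling, was called, beside 3.98% of all genes. It differed by 0.37 from a level near background in intestine. The antagonist genes Sfrp1 and Sfrp2, named after their values were seen, differed by -0.39 (SE 0.20, adjusted p = 0.315) and 0.74 (SE 0.21, adjusted p = 0.107). Frzb differed by 0.51 (adjusted p = 0.0515). The Wnt target Axin2 differed by 0.00 (SE 0.08).

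Retinoic acid genes gave 1 rise and 2 falls in 17, beside 1.86% and 2.12% of all genes. Crabp1, which binds retinoic acid in the cytoplasm, rose by 2.26 to 10.49 and 10.52, from 8.71 and 7.77. The retinaldehyde dehydrogenase gene Aldh1a3 read 8.62 and 8.89 against 10.72 and 10.82 and fell by 2.01 (SE 0.10, adjusted p = 0.00259) on 3 concordant probe sets. Aldh1a1 fell by 0.96, with a near-identical paralog that its probes may also read.

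On the IGF list, which includes Dlk1, 2 genes rose and 2 fell of 13 measured, beside 1.86% and 2.12% of all genes. Igfbp5, a secreted IGF-binding protein, fell by 3.04 (SE 0.45), from 8.92 and 9.95 to 5.84 and 6.95, with wide spread in both groups and a second probe set at -0.01. Igfbp4 fell by 0.70 and Igfbp6 rose by 1.05. The paternally expressed Notch-like ligand gene Dlk1 rose by 1.50 (SE 0.07, adjusted p = 0.00176), from 9.28 and 9.40 to 10.83 and 10.85. Of 35 axon guidance genes 1 rose and 2 fell, beside 1.86% and 2.12% of all genes. The repellent gene Sema3a rose by 0.86 (SE 0.06), while Sema3b fell by 1.32 and the semaphorin receptor gene Nrp2 fell by 0.72. Fgf13 rose by 0.84, the only call among 23 FGF genes, and Foxf2 was the only call among 15 Hedgehog pathway genes. Over all genes 3.98% were called, so single calls in lists this short are near that share.

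No Notch pathway gene was called by limma among 17, beside 3.98% of all genes, and 6 had an unadjusted p under 0.05. Of the 16 signalling genes named from Fst to Fgf13, Aldh1a3, Dlk1 and Sema3a kept their call in every fit without an array. The other calls were lost in at least 1, with adjusted p up to 0.171 without Barx1 intestine replicate 1, 0.132 without its replicate 2, 0.11 without either stomach array, 0.0865 without intestine replicate 1 and 0.131 without intestine replicate 2.

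**Figure D2:**
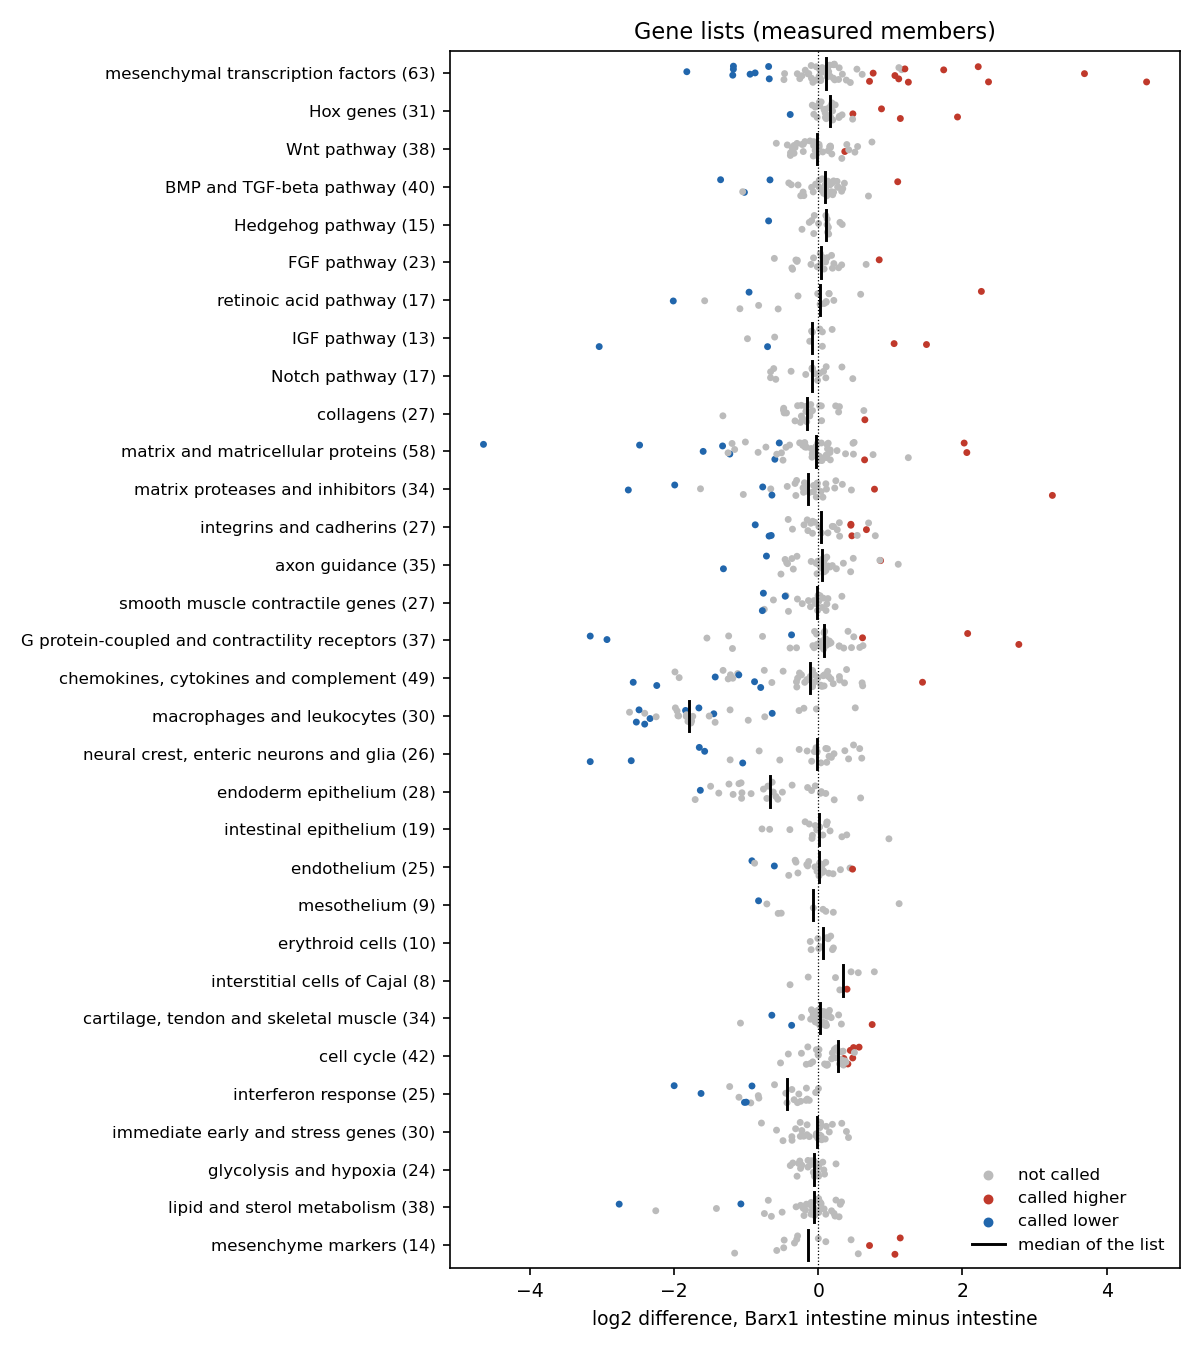
Log2 differences, Barx1 intestine minus intestine, for the measured members of each gene list (number in brackets), with the median of the list as a bar. Red points were called higher and blue points lower; the macrophage list has its median at -1.79 and the cell cycle list at 0.27, while most lists lie around 0.

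Extracellular matrix genes were called in both directions. Of 58 matrix and matricellular genes 3 rose and 7 fell, beside 1.86% and 2.12% of all genes, with a median of -0.035. Itih5, which encodes a hyaluronan-binding heavy chain, read 4.02 and 4.75 with BARX1 against 8.66 and 9.40 and fell by 4.65 (SE 0.32, adjusted p = 0.0053), the largest fall among called genes. Stomach read 5.18 and 5.20. Postn, which encodes periostin, read 9.88 and 10.25 against 12.43 and 12.66, and fell by 2.48 (SE 0.16). It differed from stomach too, by -1.82 (adjusted p = 0.012), so BARX1-expressing cells held less than either tissue.

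Thbs2, Aspn, Npnt, Fbln2 and Prelp fell, with differences of -1.60, -1.33, -1.23, -0.60 and -0.54, those of Aspn and Prelp to levels near background. In the other direction, the matricellular gene Ccn3 read 7.94 and 8.03 against 5.88 and 5.96, a rise of 2.06 (SE 0.11, adjusted p = 0.00259) to a level close to stomach, at 8.01 and 8.29. Mgp, an inhibitor of calcification, rose by 2.02 but differed from stomach by -2.29 (adjusted p = 0.017). The proteoglycan gene Bgn rose by 0.64. Of 27 collagen genes only Col4a5 was called, with a rise of 0.65, beside 3.98% of all genes called. Without overlap, 11 of the 27 were lower with BARX1, where 22.4% of all genes were.

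Among 34 matrix proteases and inhibitors 2 rose and 4 fell, beside 1.86% and 2.12% of all genes. Fap, the fibroblast activation protein gene, read 8.34 and 8.56 with BARX1, 4.90 and 5.50 in intestine and 9.22 and 9.32 in stomach, a rise of 3.25 (SE 0.20, adjusted p = 0.00442). The stromelysin gene Mmp10 read 9.06 and 8.88 against 11.46 and 11.76 and fell by 2.64 (SE 0.13, adjusted p = 0.00259), with stomach lower still at 6.94 and 6.74. Mmp13, a collagenase gene, fell by 1.99 and the inhibitor gene Timp3 fell by 0.77 (SE 0.06). Dpp4, a relative of Fap, was called lower at -0.64, but it lay near background in both groups and its other probe set differed by 0.08. Adam23 rose by 0.78.

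Of 27 integrins and cadherins, 4 rose and 3 fell, beside 1.86% and 2.12% of all genes. Cdh11, a cadherin of mesenchyme, rose by 0.45, as did Itga6, with Itga3 at 0.47 and Cdh4 at 0.67, while Cdh6, Itga9 and the adhesion receptor gene Icam1 fell, with differences of -0.88, -0.68 and -0.65. None of these 7 kept its call in every fit without an array (adjusted p up to 0.179 without Barx1 intestine replicate 1). Among the 17 matrix and protease genes, Itih5, Postn, Ccn3, Fap, Mmp10 and Timp3 did. The remaining calls reached adjusted p of 0.195 without Barx1 intestine replicate 1 and 0.11 without either stomach array.

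**Figure D3:**
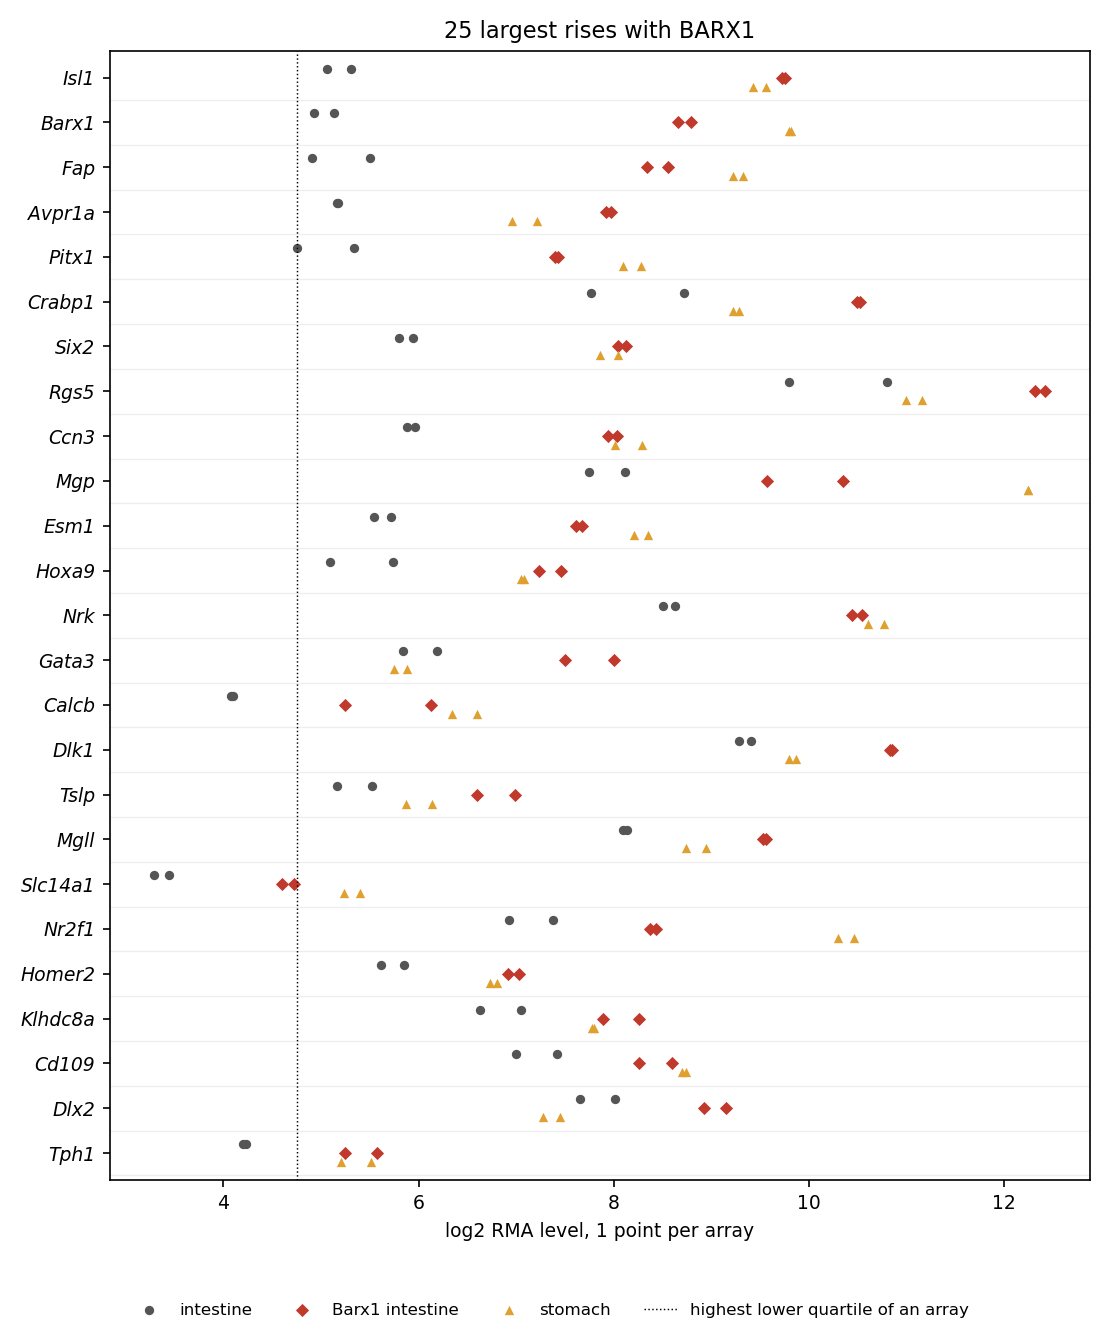
Log2 level on each of the 6 arrays for the 25 called genes with the largest rises, 1 point per array, ordered by the difference between Barx1 intestine and intestine. Isl1 and Barx1 lead. Only called genes without overlap between the intestine groups were eligible, so the separation of their points is set by the choice.

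**Figure D4:**
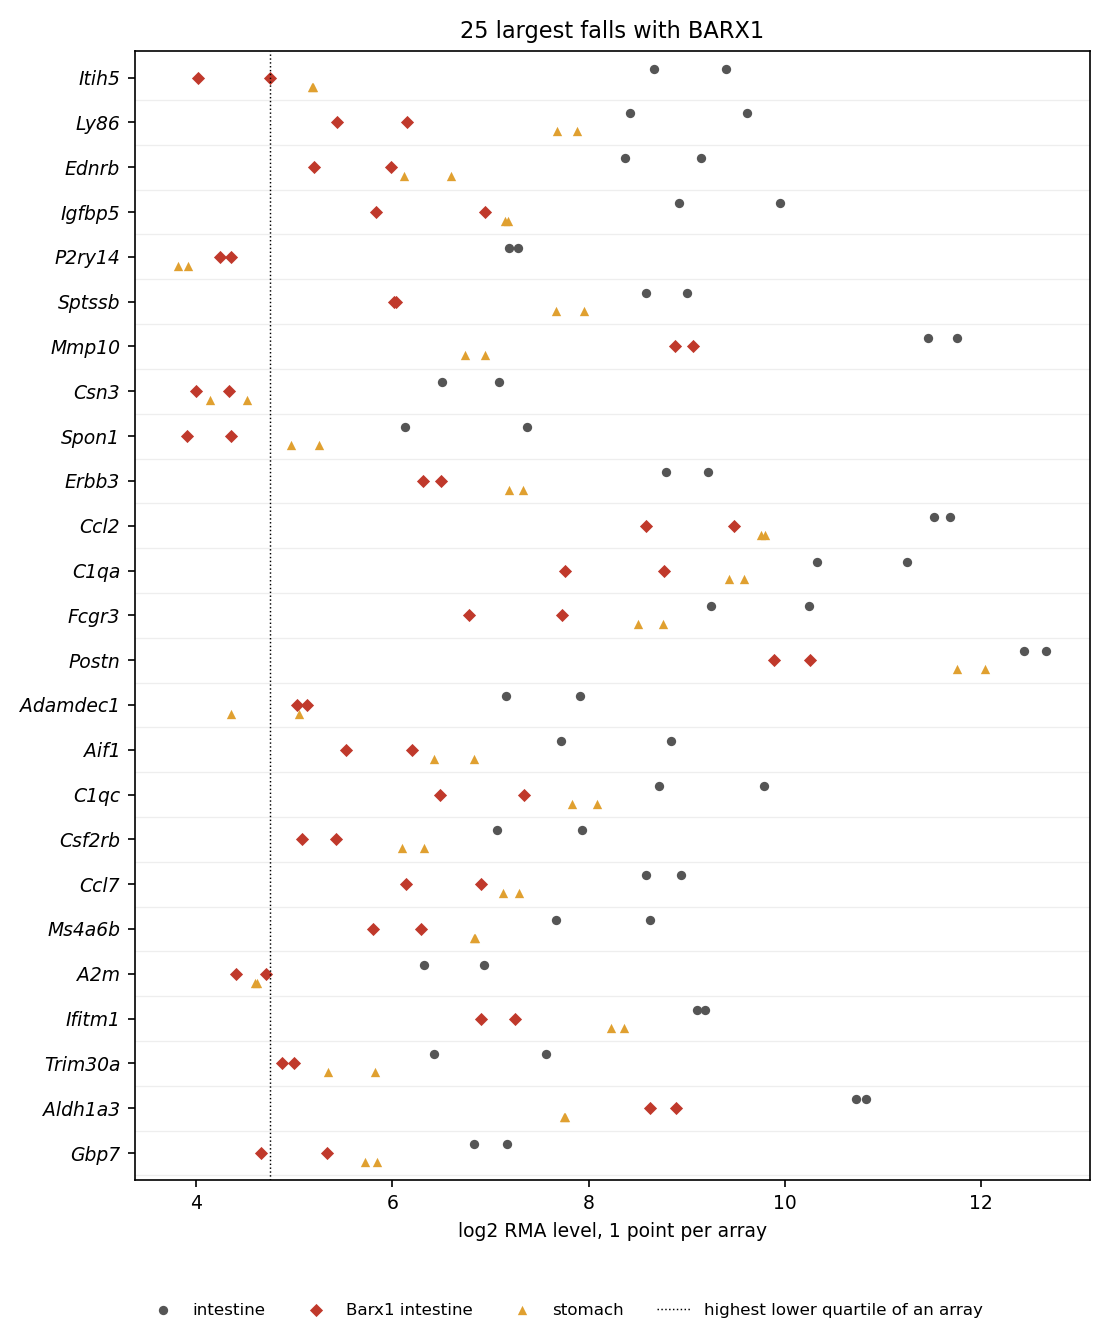
Log2 level on each of the 6 arrays for the 25 called genes with the largest falls, 1 point per array. The dotted line is at the highest lower quartile of an array (4.76). Only called genes without overlap between the intestine groups were eligible, so the separation of their points is set by the choice. Several Barx1 intestine points lie left of the line.

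Several of the most changed genes belonged to no signalling list. Sptssb, a subunit of the serine palmitoyltransferase that starts sphingolipid synthesis, read 6.04 and 6.02 against 9.01 and 8.58 and fell by 2.76 (SE 0.16, adjusted p = 0.00413), to below stomach at 7.66 and 7.95. Mgll, the monoacylglycerol lipase gene, read 9.56 and 9.53 against 8.09 and 8.14, a rise of 1.43 (SE 0.08). The phospholipase gene Pla1a fell by 1.96 (SE 0.13). Ch25h, which makes 25-hydroxycholesterol, fell by 1.07. Of 38 lipid and sterol genes 2 fell in all and none rose, beside 2.12% and 1.86% of all genes.

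Nrk, an X-linked kinase gene, read 10.44 and 10.54 against 8.62 and 8.51 and rose by 1.93 (SE 0.09, adjusted p = 0.00176). Esm1, which encodes the secreted proteoglycan endocan, rose by 2.01 (SE 0.09), from 5.54 and 5.72 to 7.61 and 7.67. Homer2, Klhdc8a and Cd109 rose by 1.24, 1.24 and 1.22. The neuropeptide gene Calcb rose by 1.60 from 4.09 and 4.08, near background, with Barx1 intestine at 5.25 and 6.13. Slc14a1, a urea transporter gene, differed by 1.29 between levels that were near background in both groups.

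Plekhb1 fell by 1.89 (SE 0.12). Csn3, Spon1 and A2m fell to levels near background, with differences of -2.63, -2.62 and -2.06, so the size of these falls is uncertain. Of the 15 genes named from Sptssb on, Sptssb, Mgll, Pla1a, Nrk, Esm1 and Plekhb1 kept their call in every fit without an array. The others reached adjusted p of 0.188 without Barx1 intestine replicate 1, 0.138 without its replicate 2 and 0.119 without either stomach array.

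Markers of other cell types differed between the groups as well. Of 30 macrophage and leukocyte genes, 8 were called lower and 0 higher, beside 2.12% and 1.86% of all genes. Their median difference was -1.79, and 26 were lower in both Barx1 intestine arrays than in either intestine array, where 22.4% of all genes were. The mean level of the list was 6.75 and 7.53 with BARX1, 8.27 and 9.14 in intestine, and 7.92 and 7.66 in stomach. The complement gene C1qa, made by tissue macrophages, read 7.76 and 8.76 against 10.32 and 11.25 and fell by 2.53 (SE 0.41, adjusted p = 0.0413). Fcgr3, Aif1, C1qc and Cx3cr1 fell, with differences of -2.49, -2.41, -2.34 and -1.66. Coro1a, Itgam and Spi1 were the other 3 calls, with Itgam near background in Barx1 intestine. The myeloid markers Ly86, Csf2rb and Ms4a6b, outside the list, fell too, with differences of -3.22, -2.24 and -2.10.

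The defining macrophage markers lay above the lower quartile in both groups, and 2 of them, Cd14 and Lyz2, differed by 0.51 (adjusted p = 0.421) and -0.20 (adjusted p = 0.834). No list member was called without either stomach array or without either Barx1 intestine array, whereas 14 list members were called without intestine replicate 1 and 1 without intestine replicate 2.

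Some chemokine, cytokine and interferon-response genes also fell. Of 49 chemokine, cytokine and complement genes 6 fell and 1 rose, beside 2.12% and 1.86% of all genes. The other 42 were not called. In this list 20 genes were lower and 7 higher without overlap, where 22.4% and 30.1% of all genes were. Ccl2, a monocyte chemoattractant gene also made by fibroblasts, read 8.58 and 9.48 against 11.52 and 11.68 and fell by 2.57 (SE 0.28, adjusted p = 0.0179). Its neighbour Ccl7 fell by 2.24. Il1a, Cxcl16, Il6 and Csf3 fell with differences of -1.43, -1.10, -0.89 and -0.80, that of Il1a to a level near background. The exception was the epithelial-type cytokine gene Tslp, which rose by 1.45.

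Of 25 interferon-response genes 5 fell and 0 rose, beside 2.12% and 1.86% of all genes, with a median of -0.43. Gbp7 fell by 2.00 and the immunoproteasome gene Psmb8 fell by 1.63. The class I gene H2-D1 fell by 1.00 and H2-K1 fell by 0.92, both on probe sets that can read near-identical class I genes and that disagreed in direction with some others for the same gene. Ifitm1, outside the list, read 6.91 and 7.25 against 9.18 and 9.10 and fell by 2.06 (SE 0.12, adjusted p = 0.00418), and it kept its call in every fit without an array. The macrophage list moved with these genes, and its part in their difference was not tested. No chemokine or list interferon gene kept its call in every fit, with adjusted p up to 0.125 and 0.171 without Barx1 intestine replicate 1 and 0.109 and 0.115 without either stomach array.

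**Figure D5:**
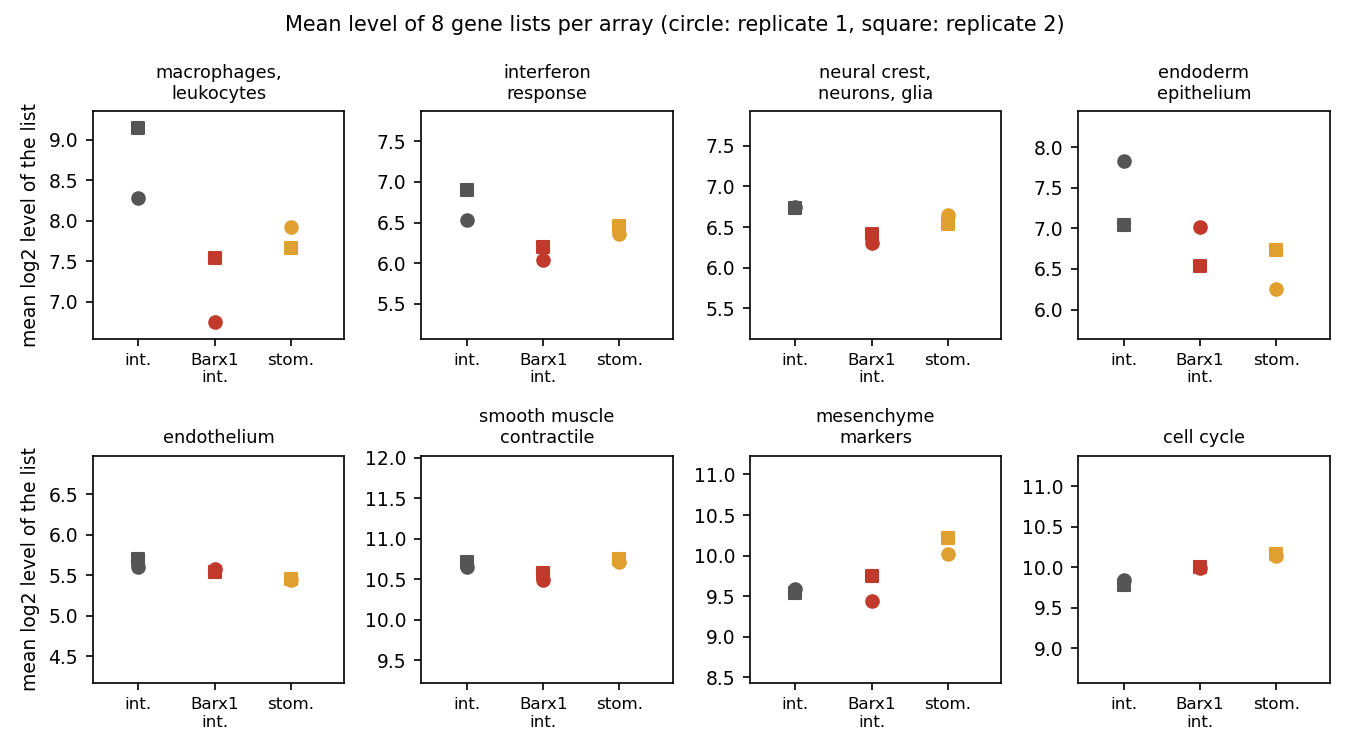
Mean log2 level over the measured members of selected lists on each of the 6 arrays, 1 point per array. The macrophage list runs from 6.75 to 7.53 in Barx1 intestine and from 8.27 to 9.14 in intestine, whereas the smooth muscle list spans 10.50 to 10.75 over all 6.

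Neural crest and glial genes were lower in part. Of 26 measured, 5 fell and 0 rose, beside 2.12% and 1.86% of all genes. Their median was -0.024, so the median lay near 0. Ednrb, the endothelin receptor of migrating crest, read 5.20 and 5.98 against 8.37 and 9.15 and fell by 3.17 (SE 0.36, adjusted p = 0.0204). Erbb3, the neuregulin receptor gene of glia, read 6.31 and 6.50 against 8.79 and 9.22 and fell by 2.60 (SE 0.16, adjusted p = 0.00418). The glial factor gene Sox10 fell by 1.58, the adhesion gene L1cam fell by 1.65 and Foxd3 fell by 1.05. Erbb3 and L1cam kept their call in every fit, although the other probe set of each differed by 0.03 and 0.05. The other 21 members were not called. Among them the neuronal genes Elavl4 and Tubb3 differed by -0.03 (adjusted p = 0.902) and -1.22 (adjusted p = 0.084). Several other neuronal genes lay above 0, with Phox2a at 0.60, Vip at 0.57, Nefl at 0.49, Nefm at 0.42 and Gap43 at 0.37. Chrna3 and Dbh lay below, at -0.16 and -0.06. The glial genes Gfap and S100b differed by -0.09 (adjusted p = 0.823) and -0.54 (adjusted p = 0.0664). Over the whole list 12 differences lay above 0 and 14 below. Without overlap, 6 members were higher and 9 lower, where 30.1% and 22.4% of all genes were. A difference between neuronal and glial genes was not tested. The other three calls reached adjusted p of 0.142 without Barx1 intestine replicate 1 and 0.108 without either stomach array.

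Epithelial genes had a median of -0.67 over 28 endoderm genes, but their spread within groups was large. Of the 28 only 1 was called, beside 3.98% of all genes. This was Spint1, which fell by 1.64. Epcam differed by -1.10 (adjusted p = 0.333). None of 19 intestinal epithelium genes was called by limma, beside 3.98% of all genes, with 3 at an unadjusted p under 0.05. Of 25 endothelial genes 1 rose and 2 fell, beside 1.86% and 2.12% of all genes. Esam and Pecam1 fell, with differences of -0.92 and -0.61, and Robo4 rose by 0.47. Pecam1 lay near background in both groups and Robo4 in intestine. Podxl of the mesothelium list fell by 0.83. None of these 5 kept its call in every fit (adjusted p up to 0.153 without Barx1 intestine replicate 1).

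Some cell cycle genes rose. Of 42 measured, 7 were called higher and 0 lower, beside 1.86% and 2.12% of all genes. Their median was 0.27, and 29 were higher without overlap, where 30.1% of all genes were. Ccnd1, which encodes cyclin D1, read 11.17 and 11.16 against 10.65 and 10.55 and rose by 0.57 (SE 0.07, adjusted p = 0.023). The mitotic genes Kif20a, Bub1, Birc5, Plk1, Cenpa and Ccna2 rose by 0.35 to 0.49. The replication genes Mcm3, Pcna and Tyms were not called, with differences of -0.08, -0.03 and 0.01. Nor were the replication genes Mcm7, Mcm2 and Mcm6, at 0.25, 0.18 and 0.12, or the proliferation genes Mki67, Top2a and Cdk1, at 0.24, 0.25 and 0.22. Over the list 32 differences lay above 0 and 10 below. A difference between mitotic and replication genes was not tested. The mean level of the list was 9.99 and 10.01 with BARX1, 9.84 and 9.78 in intestine and 10.14 and 10.17 in stomach. Its calls numbered 0 without either stomach array, without either Barx1 intestine array and without intestine replicate 2, and 1 without intestine replicate 1.

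Stress and energy genes gave no calls. Limma called none of 30 immediate early and stress genes, 4 having an unadjusted p under 0.05, and none of 24 glycolysis and hypoxia genes, 3 having one. The 10 erythroid genes gave the same result, with 3 at an unadjusted p under 0.05. Over all genes 3.98% were called, so no calls in lists this short is near that share. Of 34 cartilage, tendon and skeletal muscle genes 1 rose and 2 fell, beside 1.86% and 2.12% of all genes.

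The stomach arrays served as a level beside which to read these changes. The comparison with them shares the Barx1 intestine arrays with the main one, so levels are given side by side and not counted as evidence for it. Among the 25 called genes with the largest rises, Barx1 intestine was called above stomach for 5, below it for 5 and neither for 15. Isl1 (0.24, adjusted p = 0.209) and Six2 (0.13) were among those with neither call, and Avpr1a, Gata3, Dlk1 and Dlx2 were among those above. Among the 25 called genes with the largest falls, Barx1 intestine stayed above stomach for 3, Mmp10, Aldh1a3 and P2ry14. It lay below stomach for 4 and was not called for 18. For P2ry14 the means of 4.30 in Barx1 intestine and 3.87 in stomach both lay below the arrays' lower quartile. Signal is not shown to be above background there, so its place above stomach is uncertain.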

How the data were processed

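RNA from 6 samples was hybridised to Affymetrix arrays. The authors deposited 1 log2 value per probe set and array, summarised with RMA per the submitters' processing notes. Its version was not given in the sources used here. The method sets all arrays to a common distribution, and array medians ran from 6.93 to 6.98, so a shift of all genes together would not be seen. Of 22690 probe sets, 64 were controls; of the rest 20380 named 1 gene, 691 several and 1555 none. Values were used as deposited, with the probe set of highest mean over 6 arrays for each of 12393 genes. A limma fit (limma 3.58.1, R 4.3.3) on 3 groups of 2 compared Barx1 intestine with intestine, with Benjamini-Hochberg adjustment and a threshold of 0.05. Its residual degrees of freedom were 3 and its prior ones 2.58. Differences between replicates had an SD of 0.232 (intestine), 0.199 (Barx1 intestine) and 0.149 (stomach), against 0.318 to 0.414 between an array of each intestine group. On simulated data for this comparison with 12393 genes and 200 changed, 89.2% of log2 changes of 1 and 96.8% of changes of 2 were recovered, with 5.45% false calls. The simulated noise was independent between genes, equal in all groups and drawn from the fit's own prior. These rates therefore hold only under the fit's own assumptions and do not give the error rate on the real arrays.

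Named genes were Barx1 and Nkx3-2, the 25 largest called differences each way whose arrays did not overlap, and up to 5 members with the smallest p in each of 32 lists. Defining markers were also named for their levels. Some genes beyond that rule were named after their values were seen. They were the others called in every fit without an array, the remaining called members of lists with few calls, Gt(ROSA)26Sor, Sfrp1, Sfrp2 and Axin2. Also beyond the rule were further uncalled members of the neural crest and cell cycle lists and the genes given as other observations. Members and lists were chosen with earlier results of these data known. Alternatives were a dim-gene filter, other scalings, averaged probe sets, a variance trend, fewer arrays, a replicate block and other thresholds.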

Additional observations from a re-analysis of the deposited data

How the results depend on the processing

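Counts of called genes depended on the arrays and settings. None of the 114 named called genes changed sign under any alternative, though the dim-gene filter left 88 of them. This is no test of the calls. Leaving out an array cannot change the sign of a gene whose arrays do not overlap. Thresholds, the variance trend and the replicate block leave the difference itself unchanged. Main counts were 230 higher and 263 lower. With a filter on dim genes (6573 left) they were 459 and 386, with median centring 359 and 282, with a variance trend in limma 506 and 531, and with only the 4 intestine arrays 19 and 31. For this comparison the fit on only the 4 intestine arrays is the same as either fit without a stomach array, and not a further check. Median centring moved the share of higher calls from 46.65% to 56.01% and the median of all genes from 0.021 to 0.059. At adjusted p under 0.01 they were 18 and 22, and under 0.1 they were 642 and 674. Leaving out 1 array gave 19 to 137 higher and 29 to 329 lower. A second quantile normalisation (294 and 262) and averaged probe sets (247 and 282) stayed within 1.5 times.

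With the replicate number as a block, 94 genes were higher and 173 lower, and 77 of the 114 named genes kept their call. Same-numbered arrays of the intestine groups had deviations correlated at 0.203, but the numbers are not stated to pair the samples. With 2 arrays a group, only large or tight differences could be called, and values below the lower quartile are not shown above background.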

Other observations

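Some called genes outside the lists are given here singly. They were picked after their values were seen, from genes called higher, and stand for no pathway or gene class. Kcnj8, a potassium channel gene of pericytes and smooth muscle, rose by 1.18 (SE 0.16), from 9.18 and 9.03 to 10.06 and 10.52. The potassium channel genes Kcnn4 and Kcnab1 rose by 0.97 (SE 0.06) and 0.93 (SE 0.11), whereas the channel subunit gene Kcnmb1 fell by 0.78. Tph1, an enzyme gene of serotonin synthesis, rose by 1.20 from a level near background in intestine. Ddc, a decarboxylase gene, rose by 0.84 and the serotonin receptor gene Htr3a rose by 0.66.

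The imprinted gene Plagl1 rose by 0.90 (SE 0.06), Grb10 rose by 0.35 and Ndn rose by 0.33, while Cdkn1c, also imprinted, differed by -0.42 (adjusted p = 0.11). Cav2, Cav1 and Cavin1, which encode proteins of caveolae, rose by 0.66, 0.38 and 0.38, with 1 of 3 Cavin1 probe sets at -0.21. Kcnn4 and Plagl1 kept their call in every fit without an array. The other 10 genes called higher lost it in at least 1, with adjusted p up to 0.171 without Barx1 intestine replicate 1, 0.111 without its replicate 2 and 0.113 without either stomach array.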
